A study of Arabidopsis thaliana with 27 samples.

Results

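H3K27me3, the trimethylated form of lysine 27 of histone H3, was mapped by sequencing of immunoprecipitated chromatin (ChIP-seq) from wild-type seedlings of Arabidopsis thaliana. The wild-type landscape consists of 2 of the 27 samples of the series, H3K27me3 WT replicates 1 and 2, which were chosen by their labels alone. Both came from whole 14-day-old seedlings of genotype WT grown under long days, carried no transgene or mutation named in the labels, and were precipitated with the same commercial H3K27me3 antibody. The other samples are inputs, GFP fusion libraries and H3K27me3 libraries of brm-1, ref6-1 and the double mutant, and none of them was compared here. Genes with 50% or more of the body under peaks in both libraries are called marked here, which held for 2951 of 37887 nuclear loci (7.79%) and for 2451 of 27432 protein-coding genes (8.93%).

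H3K27me3 is deposited by Polycomb Repressive Complex 2, whose catalytic subunits in seedlings are CLF and SWN, and it is read by LHP1 and removed by Jumonji demethylases such as REF6. In plants the mark lies over the bodies of silent genes, many of them developmental regulators that are kept off outside the organ or stage in which they act. A seedling is a mixture of root, leaf, vascular and meristem cells, so a peak list of the whole plant cannot tell few cells with a strong mark from many cells with a weak one.

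The labels do not say that the 2 libraries came from separate plantings, so their difference may be technical. Replicate 1 had 11132 peaks over 7.81 Mb and replicate 2 had 11634 peaks over 6.99 Mb, with a median width of 414 bp and 350 bp. Each peak carries the authors' score, −10 times the base-10 logarithm of its p-value, and the median was 149 in replicate 1 and 126 in replicate 2. The read depth behind the lists is unknown, so a gene without a peak is listed as uncovered, not as free of the mark. From here on a pair of percentages gives replicate 1 first and replicate 2 second, and a mean ± SD is over these libraries (n = 2).

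The targeted mark was checked first at genes whose state is known. All 7 housekeeping genes examined (ACT2, ACT7, UBQ10, GAPC1, PP2AA3, TUB2 and TUB3) had 0% of their body under peaks in both libraries. The floral homeotic gene AG, a textbook Polycomb target that is silent in leaves, was covered over 100% and 97.8% of its body. FLC, the MADS-box repressor of flowering, was covered over 96.9% and 95.0%. STM, the KNOX gene of the shoot meristem, was covered over 96.7% and 97.6%. In either library these targets were separated from the 7 housekeeping genes without overlap. They are, however, among the most covered of the regulators examined below, and others such as CUC1 and SCR also had 0%. The comparison describes the named genes and does not test the peak lists as a whole.

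The libraries placed most of the mark in the same positions. They shared 5.83 Mb, which is 74.6% of the peak bases of replicate 1 and 83.4% of those of replicate 2, a Jaccard index (shared bases over bases in either list) of 0.650. At least 1 bp of overlap with the other list was found for 77.3% and 82.4% of the peaks. Disagreement lay with the weak peaks. Of those scoring 50 to 100, 51.1% in replicate 1 and 63.2% in replicate 2 overlapped the other list, against 79.2% and 89.8% at 100 to 200, 96.8% and 99.2% at 200 to 500 and 100% of both lists above that. The peaks of the lowest class were also the narrowest, with a median width of 231 bp and 208 bp, against 2154.5 bp and 2118 bp at scores of 1000 or more.

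**Figure D1:**
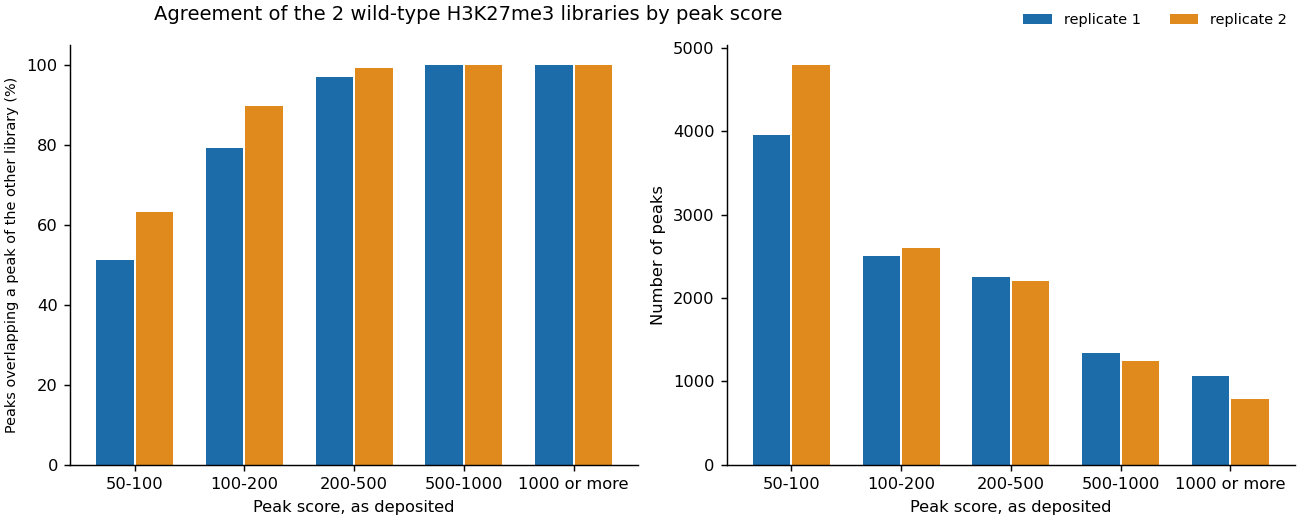
Left, percentage of peaks that overlap a peak of the other library by at least 1 bp, by class of the deposited peak score, for replicates 1 (blue) and 2 (orange). Right, number of peaks in each class. Overlap climbs from 51.1% and 63.2% in the lowest class to 100% at scores of 500 and more, and the lowest class is also the most numerous.

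Of the loci marked in replicate 1, 83.0% were marked in replicate 2, and 92.9% of those of replicate 2 were marked in replicate 1. The 605 loci marked in replicate 1 alone had a median coverage of 35.6% in replicate 2, and the 224 marked in replicate 2 alone had a median of 35.6% in replicate 1. Most of them were thus near misses: 68.4% and 66.1% lay between 25% and 50% in the other library, and 102 and 54 had no coverage there. Over the 5087 protein-coding genes with any coverage, replicate 1 covered more of the gene in 3053 and replicate 2 in 1631, with a median difference (replicate 1 minus replicate 2) of 3.20 percentage points. Across those genes the coverages had a Pearson r of 0.872, which describes genes within 2 libraries and not replicates.

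Most protein-coding genes carried no coverage. There were 22345 (81.5%) without a covered base in either library, 1285 covered in both but under 50% in both, and 551 that reached 50% in 1 library while covered in the other. Of the 2451 marked genes, 1306 (4.76% of all protein-coding genes) were covered over at least 80% in both libraries, 858 over at least 90% and 393 completely. The median marked gene had 86.5% of its body under peaks, with a median SD between libraries of 3.68 percentage points. The bound of 50% cuts through a thin zone, with 191 genes between 50% and 55% and 184 between 45% and 50% in the library with less coverage. IPT3, a cytokinin synthesis gene, lay just inside at 50.1% and 50.4%, and IAA7, an auxin-response repressor, just outside at 51.1% and 49.8%.

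Marked genes were shorter than the others, with a median body of 1437 bp (quartiles 964 and 2081.5 bp) against 2153 bp (1393 and 3113 bp). The share marked was 9.14% under 500 bp, 17.2% at 500 to 1000 bp, 13.1% at 1000 to 2000 bp, 6.31% at 2000 to 3000 bp, 3.46% at 3000 to 5000 bp and 1.10% from 5000 bp. The bound asks for more covered bases in a long gene, and any overlap in both libraries fell less steeply, from 23.5% at 500 to 1000 bp to 5.67% from 5000 bp.

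The mark was not confined to protein-coding genes. It covered 255 of 3480 long noncoding RNA loci (7.33%), 54 of 326 microRNA loci (16.6%) and 96 of 926 transcribed pseudogenes (10.4%). Other pseudogenes, a class that includes many transposon-derived loci, were marked in 40 of 3917 cases (1.02%), and none of 625 transfer RNA loci was marked. Protein-coding bodies held 61.8% and 62.3% of all peak bases while making up 54.1% of the genome. Pseudogene bodies held 2.65% and 2.50% of peak bases while making up 8.78%.

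Regulators were examined in lists by the organ or stage in which they act. Their members were chosen with earlier results of these data known, so the counts describe these genes and are to be read beside the 8.93% of all protein-coding genes. Among floral organ identity genes, 10 of 12 were marked. The class A gene AP1 was covered over 99.2% and 98.8%, the class B genes AP3 over 97.9% and 94.9% and PI over 89.1% and 87.9%, and the ovule gene STK over 86.4% and 82.2%. SEP3, a cofactor of the floral homeotic proteins, was covered completely in both libraries, and its relatives SEP1 and SEP2 had means of 85.4 ± 2.62% and 85.6 ± 2.61% (SD, n = 2). LFY, which switches on the floral program, was covered over 67.9% and 67.0%. The remaining members were near the bound: SEP4 had 71.9% and 46.1%, and SHP2, a valve margin gene, had 49.7% and 47.9%, while its close relative SHP1 passed at 55.7% and 55.8%.

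Flowering-time genes were mixed, with 2 of 10 marked. FLC (95.9 ± 1.399%, SD, n = 2) carried peaks at 3100, the value at which the deposited scores stack, in both libraries. The florigen gene FT had 53.5% and 44.1%, so it was marked in replicate 1 only, whereas its paralogue TSF had 60.7% and 59.5%. SOC1, which integrates flowering signals, had 56.4% and 47.5%. MAF4 and MAF5, relatives of FLC, were covered over 32.9% and 23.2% and over 29.7% and 23.8%. FWA, a homeobox gene known for silencing by DNA methylation, had 13.1% and 4.12%. The photoperiod genes CO and GI and the repressor gene SVP had no covered base in either library.

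In the shoot meristem and boundary list, 7 of 10 genes were marked. WUS, the stem-cell organiser, and CUC2, a NAC boundary gene, were covered completely in both libraries. CLV3, which encodes the peptide signal of the stem cells, had 99.5% and 100%. Of the KNOX genes, KNAT1 had 84.7% and 74.5%, KNAT6 had 61.7% and 61.1%, and KNAT2 had 56.2% and 46.7% and so missed the bound in replicate 2. The boundary genes differed from one another, since CUC1 had no covered base and CUC3 only 33.1% and 22.6%. WOX1, which acts in leaf margins, showed one of the wider gaps between libraries, 97.4% against 68.1%.

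Root stem cell regulators were marked in 5 of 6 cases. PLT1 and PLT2, the AP2-type transcription factors that set the root meristem, were covered over 90.2% and 88.4% and over 87.7% and 83.8%. The niche gene WOX5 had 85.8% and 85.9%, BBM had 86.9% and 78.7%, and SHR, a GRAS factor made in the stele, had 90.5% and 90.1%. SCR, the GRAS partner of SHR in the endodermis, had none. The members thus fell into covered and uncovered genes with nothing between.

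Seed and embryo regulators were marked in 4 of 6 cases. ABI4 was covered completely, ABI3 over 97.6% and 97.0%, LEC2 over 96.8% and 81.8%, and FUS3 over 84.7% and 98.2%. FUS3 is one of the few list genes with the larger value in replicate 2. LEC1, the NF-YB subunit of the same network, had 31.2% and 16.7%, and DOG1, a seed dormancy gene, had 39.2% and 45.1%. In the endosperm list, MEA, the Polycomb methyltransferase gene of the female gametophyte and endosperm, was the marked member of 4 (82.6% and 82.0%). PHE1, a MADS-box target of MEA, had 72.7% and 37.8%, FIS2 had 21.2% and 0%, and AGL62 had none. The 7 genes for Polycomb proteins used in seedlings (CLF, SWN, EMF2, VRN2, FIE, MSI1 and LHP1) had 0% in both libraries.

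**Figure D2:**
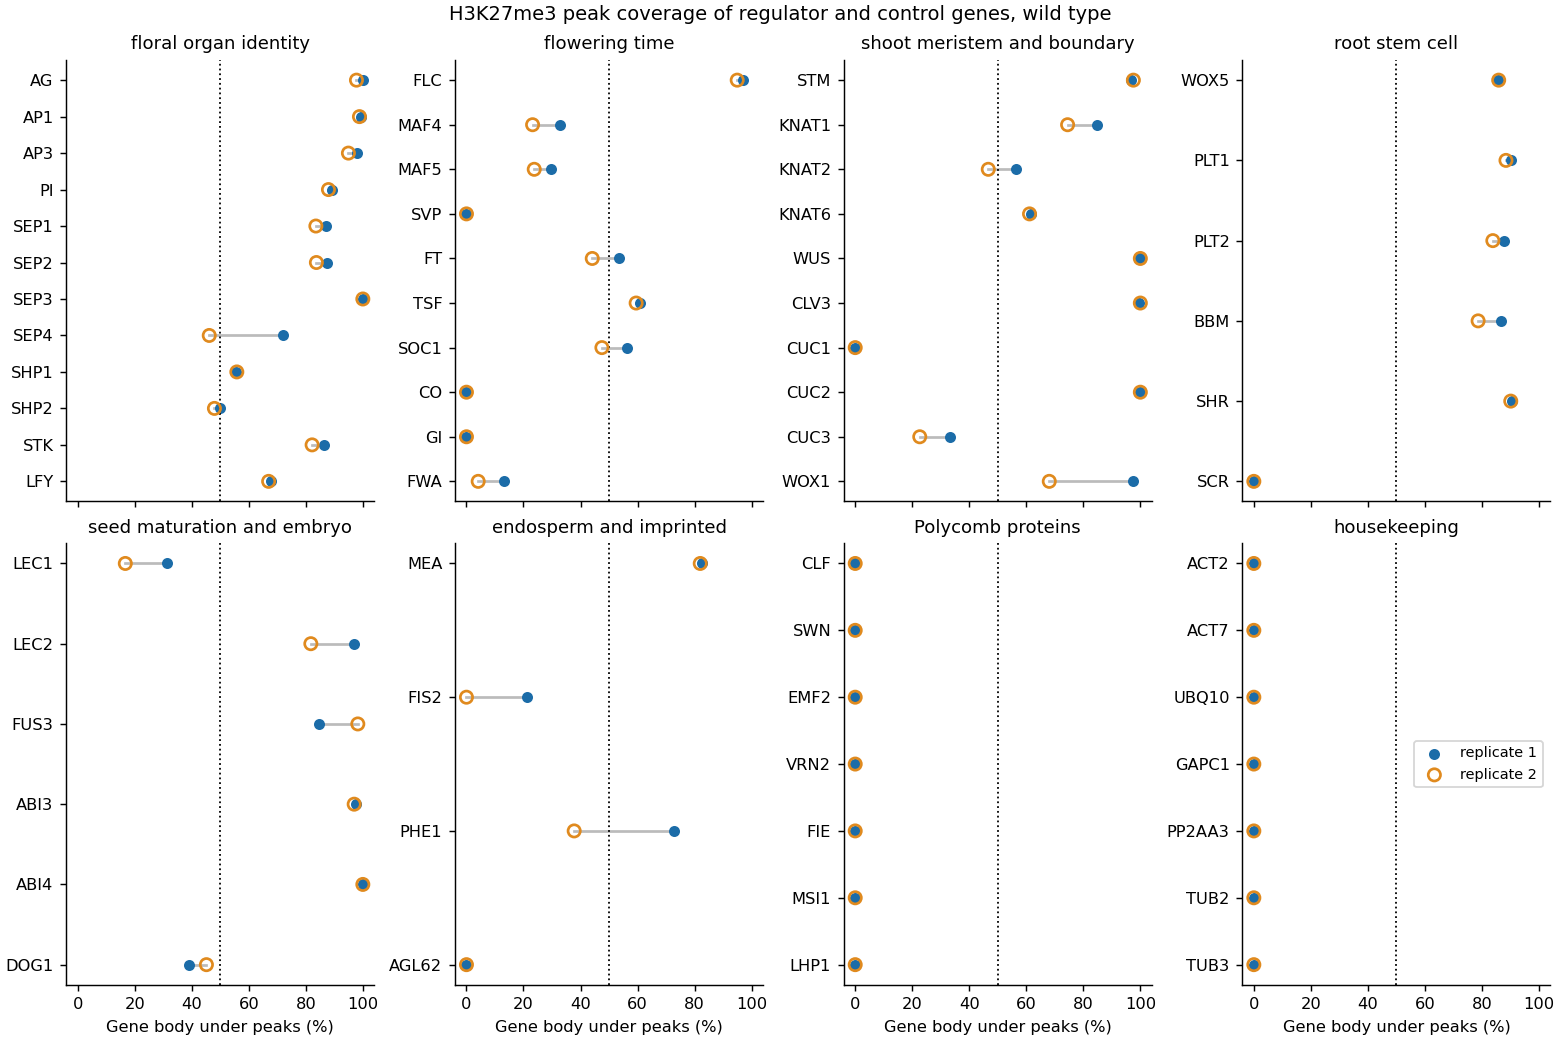
Percentage of each gene body under H3K27me3 peaks in replicate 1 (filled blue) and replicate 2 (open orange) for the 62 genes of 8 lists, with the bound of 50% dotted. Floral, meristem, root and seed regulators lie mostly to the right of the bound, flowering-time genes are spread out, and the Polycomb and housekeeping genes all sit at 0.

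The peaks with the highest scores covered several of these regulators. The 10 loci with the highest score could not be separated, because 51 loci, 45 of them protein-coding, reached 3100 or more in both libraries. Transcription factor genes among them include STM, CUC2, AP1, FLC, ABI3, PLT2, NST1, TCP1, BRC1, NAC067 and NAC074. DRNL, an AP2-type factor of organ initiation, and APL, a MYB factor of phloem identity, were also there, each covered completely in both libraries. The others include SAP, an F-box gene of flower and leaf growth covered over 91.5% and 92.6%, the seed storage gene CRU3 and the myrosinase gene TGG2. Many of the 51 are locus identifiers without a symbol. Scores at this ceiling describe the authors' list and cannot rank the genes within it.

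Families were defined by gene symbol or synonym. Of 43 families with 2270 distinct loci, 27 had a share of marked members above 8.93% and 9 had no marked member. WOX homeobox genes had the largest share, 9 of 14, including WOX9, WOX7 (both completely covered), WOX11 (94.4% and 88.9%) and WOX4 (89.3% and 88.1%), a regulator of the vascular cambium. WOX10, WOX13 and WOX14, which form the oldest branch of the family, had no covered base, and the embryo genes WOX2 and WOX8 stayed under the bound at 17.0% and 12.1% for WOX2 and 32.3% and 32.7% for WOX8. KNOX genes named KNAT were marked in 3 of 7 cases. The symbol rule leaves STM out of this count and WUS out of the WOX count, and both genes were marked. The class II genes KNAT3, KNAT4 and KNAT5 were uncovered, and KNAT7, a class II gene of secondary wall formation, had 67.8% and 65.6%.

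LBD genes, plant-specific regulators of organ boundaries and lateral roots, were marked in 17 of 40 cases, the same count in each library. LBD16, LBD18 and LBD29, which act in lateral root formation, had 86.2% and 89.0%, 99.7% and 91.2%, and 100% in both. JLO (LBD30), LBD2 and LBD40 were covered completely as well. In both libraries 20 of 40 were at 0, a smaller share than the 81.5% of all protein-coding genes without a covered base. Among TCP genes 6 of 22 were marked and 14 were at 0, also a smaller share than that 81.5%. TCP1, TCP12 (95.3% and 93.5%) and BRC1 (TCP18), the branching-inhibitor group of the family, were among the marked, and TCP1 and BRC1 were covered completely. TCP5 (95.0% and 99.6%) and TCP17 (97.8% and 99.9%) were marked too. TCP2, TCP3, TCP4, TCP10 and TCP24, the leaf-growth factors targeted by miR319, had no covered base.

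AGAMOUS-like MADS genes were marked in 29 of 97 cases, with 36 in replicate 1 and 29 in replicate 2. Beyond the floral genes they include the root genes AGL12 (100% and 87.8%), AGL17 (99.9% and 85.0%), AGL21 (74.0% and 80.2%) and AGL44 (70.5% and 73.1%, also known as ANR1, a nitrate-response factor). AGL42, AGL71 and AGL72, relatives of SOC1, had 71.7% and 75.7%, 100% in both, and 94.6% and 96.7%. AGL8 (FRUITFULL), a gene of fruit and inflorescence development, had 88.9% and 86.2%. The seed coat gene TT16 had 88.9% and 82.4%. No covered base in either library was found for 48 of 97, against 81.5% of all protein-coding genes.

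NAC genes were marked in 28 of 100 cases. Among those of xylem and fibre differentiation, VND1 had 97.2% and 90.8%, VND7 had 62.9% and 71.3%, and NST1 was covered completely in both libraries, while NST2 (47.8% and 21.7%) and NAC101 (VND6, no covered base) were not marked. LOV1, a flowering-time and cold-response gene, had 70.2% and 55.5%, and XND1, a xylem repressor, had 70.2% and 66.7%. MYB genes were marked in 44 of 125 cases. They include the secondary wall switches MYB46 (76.6% and 83.2%) and MYB83 (94.4% and 74.4%), the trichome gene MYB0 (GLABRA1, 72.2% and 63.4%), its paralogue MYB23 (96.8% and 87.7%) and the endodermal barrier gene MYB36 (100% and 98.3%). The suberin regulators MYB41 (97.5% and 97.7%) and MYB92 (99.6% and 99.4%) and the stamen genes MYB21 (69.5% and 57.2%) and MYB24 (99.3% and 100%) were marked as well. WRKY genes, known from defence and development, were marked in 25 of 72 cases, with WRKY71 at 99.4% and 100%, WRKY62 at 99.8% and 100% and WRKY12, a secondary wall repressor of the pith, at 94.1% and 100%.

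Other transcription factor families had lower shares than the MYB and WRKY genes. Homeobox genes named HB, HAT or HDG were marked in 12 of 61 cases, GATA genes in 6 of 29 and genes named bHLH in 6 of 22. ERF and DREB genes were marked in 4 of 34 cases (11.8%) and bZIP genes in 5 of 46 (10.9%), both close to the background of 8.93%. At any overlap the ERF and DREB share lay below the 15.6% of all protein-coding genes, and at 80% of the gene the bZIP share lay below their 4.76%. The bHLH count concerns only loci whose symbol or synonym carries that name. Among the marked bHLH genes are BHLH134, bHLH135, BHLH136 (PRE1) and BHLH161, small proteins without a basic domain that promote growth, with PRE1 at 71.4% and 52.5%. SPL genes, many of them targets of miR156, were marked in 1 of 16 cases, SPL8 at 100% and 99.3%, and the other 15 had no covered base in either library.

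Hormone genes are described by step, and a difference between the steps was not tested. In auxin synthesis 4 of 11 YUC genes were marked: YUC1 had 74.4% and 86.6%, YUC2 had 87.6% and 78.7%, YUC4 had 91.1% and 82.9%, and YUC10 had 64.4% and 53.5%. YUC3, YUC7 and YUC11 were uncovered. Of 8 PIN auxin transporter genes, PIN5, whose protein sits in the endoplasmic reticulum, had 95.1% and 100%, and PIN2 (EIR1), the root gravitropism carrier, had 75.3% and 53.5%. PIN3, PIN4 and PIN7 were bare, and PIN6 had 34.7% and 33.6%. In auxin response, 0 of 23 ARF genes were marked. For IAA genes the count was 3 of 29 (10.3%), or 5 in replicate 1 alone, among them AXR3 (IAA17) at 83.5% and 87.3%, and for SAUR genes 7 of 80 (8.75%). Both shares are close to the 8.93% of all protein-coding genes. SAUR genes are short, however (median 815 bp), and 17.2% of all protein-coding genes of 500 to 1000 bp were marked. Gibberellin oxidases were marked in 4 of 17 cases, with GA20OX3 at 82.4% and 88.1%, GA20OX4 at 90.5% and 68.2%, GA2OX5 at 78.9% and 78.1% and GA2OX7 at 96.7% and 92.6%. Among synthesis genes of the vegetative plant, GA20OX1, GA20OX2 and GA3OX1 had no covered base, whereas GA3OX2 lay just under the bound at 47.6% and 47.1%.

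Genes for secreted peptides and wall proteins were marked unevenly. CLE peptide genes, which include the vascular signal CLE41 (95.8% and 87.3%), were marked in 11 of 30 cases, and CLE4, CLE5 and CLE7 were covered completely. RALF-like peptide genes were marked in 8 of 34 and plant defensin (PDF) genes in 4 of 13. PDF1.2 and PDF1.2c are near-identical copies whose reads the alignment may have split or shared, so their values (70.3% and 77.0%, and 100% in both) are uncertain. LCR defensin-like genes were marked in 4 of 85, of which 3 are also counted as PDF genes, and SCRL genes in 1 of 28. These counts depend on the library, with 8 LCR genes in replicate 1 and 2 SCRL genes in replicate 2. Expansin genes, whose products loosen cell walls, were marked in 10 of 31, among them the root hair genes EXPA7 (90.8% and 100%) and EXPA18 (87.5% and 76.4%). Of 33 XTH wall-remodelling genes 3 were marked, with 7 in replicate 1 and 3 in replicate 2, so that share rests on the library chosen.

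Transport and specialised metabolism formed the last group. SWEET sugar exporters were marked in 6 of 17 cases, with the phloem-loading gene SWEET11 at 86.8% and 86.3% and its partner SWEET12 under the bound at 30.9% and 30.5%. SWEET10, a flowering-related member, had 96.1% and 93.1%. UMAMIT amino acid transporter genes were marked in 11 of 44 cases and ABC transporter genes in 5 of 127. Cytochrome P450 genes were marked in 47 of 241 cases, a further 47 had some coverage in both libraries, and 134 had none. KLU (CYP78A5), a growth regulator of organ size, and CYP86A1, a suberin enzyme, were covered completely. The prefix TPS names 20 genes of unrelated products, 11 trehalose-phosphate synthases, none of them marked, and 9 terpene synthases, of which TPS02, TPS03, TPS04 and TPS10 were marked. TPS04 (87.7% and 82.9%) and CYP82G1 (80.1% and 64.6%) act in succession in the synthesis of a volatile homoterpene, and both were marked. The trehalose-phosphate synthases that share the prefix had at most 12.6% in either library.

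Several families, many of them of general cell functions, had few marked members or none. Family shares were not adjusted for gene length, and 3.46% of all protein-coding genes of 3000 to 5000 bp were marked. The median length lay in that class for GLR (3836 bp), ARF (3567 bp) and ABC transporter genes (4610 bp, 3.94% marked). Their low counts therefore cannot be read against 8.93% alone. At 500 to 1000 bp 17.2% were marked, a class that holds the medians of several short families. These are SAUR (815 bp), LCR (596 bp), SCRL (580 bp), RALF-like (575 bp), PDF (734 bp) and CLE genes (834 bp), and the same limit holds for their shares. No member was marked among 51 ribosomal protein genes, 40 proteasome genes, 38 photosystem and light-harvesting genes, 20 histone genes, 51 heat-shock protein and heat-shock factor genes, 23 PUB ubiquitin ligase genes and 20 GLR glutamate receptor genes. Proteasome, photosystem and histone genes had no member with coverage in both libraries. Some coverage in both was found for 1 ribosomal protein, 3 heat-shock, 2 PUB and 5 GLR genes, and at any overlap the GLR share lay above that of all protein-coding genes. Of 49 glutathione transferase genes none was marked in both libraries, although 3 were in replicate 1 and 1 in replicate 2. Receptor-like kinases named CRK had 1 marked member of 43, CRK4 at 75.3% and 66.4%, and UGT glycosyltransferases had 5 of 64, a share of 7.81% that is close to the background.

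**Figure D3:**
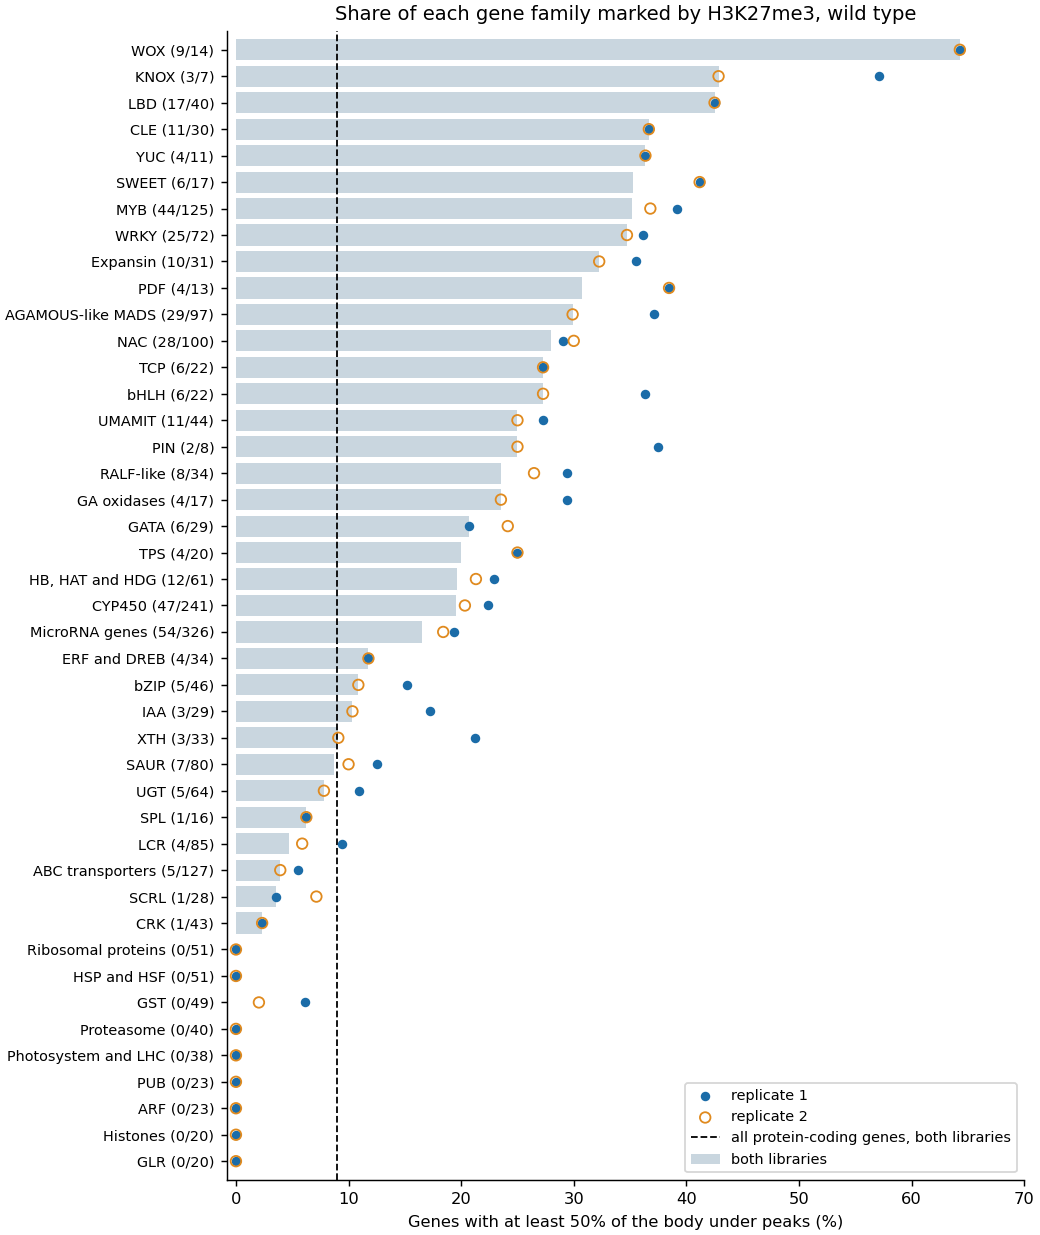
Percentage of each of 43 families with at least 50% of the gene body under peaks in both libraries (bars), in replicate 1 (filled blue) and in replicate 2 (open orange); brackets give marked over all members and the dashed line the 8.93% of all protein-coding genes. WOX genes reach furthest with 9 of 14, and 9 families have no member marked in both libraries.

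MicroRNA loci had a higher share than protein-coding genes, 54 of 326 (16.6%). This share was not adjusted for length, and at any overlap in both libraries the count was 64 of 326, against 15.6% of protein-coding genes. The loci are short, with a median of 144.5 bp, so they are mostly covered wholly or not at all, and 46 of the 54 were covered over at least 80% in both libraries. In the miR156 family, which holds plants in the juvenile phase, MIR156a, MIR156e, MIR156f and MIR156g were covered completely. MIR156c had 5.77% and 33.7%, and the remaining 5 of 10 had none. The related MIR157a, MIR157b and MIR157d were covered completely too, and MIR157c had 59.0% and 0%. All 3 MIR319 loci, whose products target leaf-growth TCP genes, were covered completely. So were both MIR165 loci, whose products target HD-ZIP III genes, whereas of 7 MIR166 loci with the same targets only MIR166g was marked and the other 6 were at 0.

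In the miR172 family, which targets AP2-type flowering repressors, MIR172c and MIR172d were covered completely and MIR172a, MIR172b and MIR172e not at all. The phosphate-starvation microRNA loci MIR399b, MIR399d and MIR399e were covered completely, MIR399f over 100% and 44.9%, and MIR399a and MIR399c not at all. MIR2111a and MIR2111b, also known from phosphate starvation, had 100% and 98.1% and 100% in both. Of 14 MIR169 loci 3 were marked, and this family held several disagreements, such as MIR169i with 7.28% and 97.6%. MIR164c, which targets NAC genes including CUC2, had 100% and 52.0%, MIR164b had 92.8% and 20.9%, and MIR164a had 0% and 100%. None of the loci of miR162, miR167, miR168, miR390, miR393, miR396, miR398 and miR403 was marked, and all of them were at 0 in both libraries.

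Domains were built by joining peaks of a library over gaps up to 500 bp, and shared domains are the stretches in the domains of both libraries. Replicate 1 had 5999 domains with a median of 936 bp and replicate 2 had 6020 with a median of 852 bp. Their overlap gave 5261 shared domains over 6.72 Mb, with quartiles of 384, 858 and 1668 bp. Long domains were few but held much of the mark: 993 (18.9%) reached 2 kb and held 51.3% of the shared bases, 132 (2.51%) reached 5 kb and held 13.0%, and 6 reached 10 kb. Without joining there were 11678 shared stretches with a median of 277 bp, so the lengths rest on the joining distance.

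Most shared domains held no marked locus or a single one. There were 2992 (56.9%) without a marked locus, with a median of 473 bp, of which 881 touched no locus at all. A single marked locus lay in 1860 domains (median 1497 bp), 2 in 307, 3 in 65, 4 in 25 and 5 or more in 12. The 409 domains with 2 or more had a median of 3275 bp and held 973 of the 2833 marked loci that a single domain covers over at least 50%. Counting protein-coding genes alone, 228 domains held 2 or more. The largest number was 7 loci, 5 of them protein-coding.

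**Figure D4:**
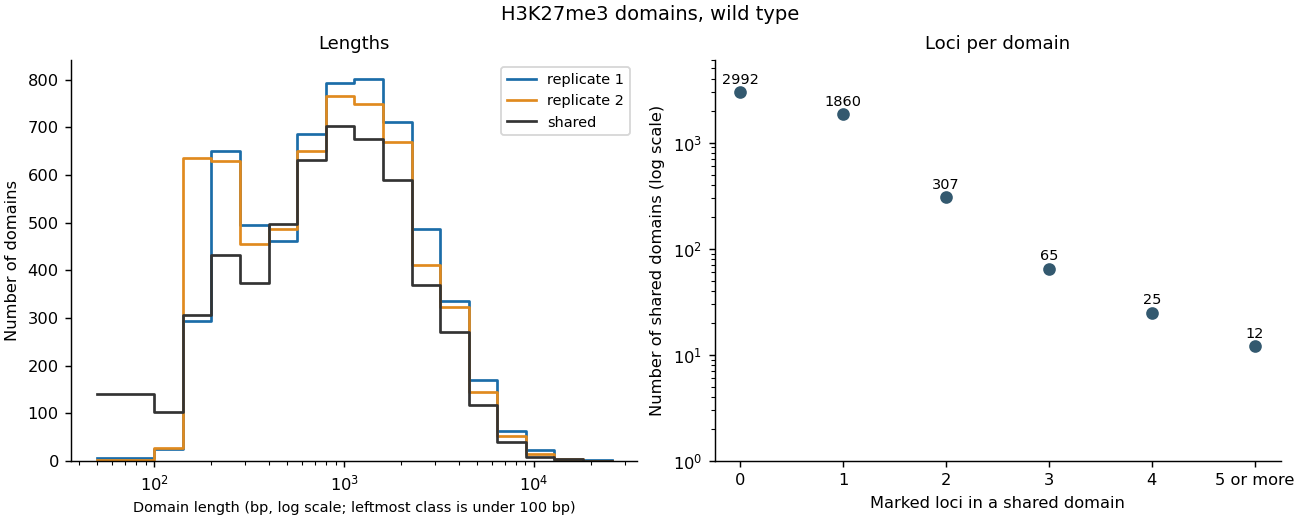
Left, number of H3K27me3 domains by length (log scale) in replicate 1, in replicate 2 and shared by both. Right, number of shared domains (log scale) by how many marked loci they hold. The shared domains have a median of 858 bp, and the counts fall from 2992 without a marked locus to 12 with 5 or more.

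The longest shared domain, chromosome 3, 7719538 to 7733975 in TAIR10 coordinates (14438 bp), held 6 marked loci from AT3G21920 to AT3G21945, 4 of them protein-coding. In replicate 1 it was part of a domain of 21983 bp made of 10 peaks. The next, chromosome 5, 5616456 to 5630019 (13564 bp), held 5 protein-coding genes, AT5G17080 to AT5G17120, each covered completely in both libraries. A domain of 13298 bp on chromosome 5, 17046816 to 17060113, contained the marneral synthase gene MRN1 (95.8% and 93.6%) and 2 long noncoding RNA loci. The domain with 7 marked loci lay on chromosome 3, 6000763 to 6011977, and ran from AT3G17530 to AT3G17570. On chromosome 2, 8251442 to 8261817, a domain of 10376 bp held the peptide gene RALFL13 and SHT, a spermidine hydroxycinnamoyl transferase gene of the tapetum (85.9% and 79.3%).

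Other domains reached well beyond a regulator gene. The domain of PLT1, chromosome 3, 7294235 to 7303499, measured 9265 bp, which is 2.85 times the gene, and held no other marked locus. CUC2 also lay without another marked locus in a domain of 5059 bp (2.35 times the gene), and ABI4 shared one of 3726 bp (2.78 times) with another marked locus. The domain of STM (chromosome 1, 23058697 to 23064642) was 1.71 times its gene. AG and FLC fitted their shared domains closely, with 6325 bp on chromosome 4, 10382341 to 10388665 (1.11 times), and 5761 bp on chromosome 5, 3173620 to 3179380 (0.950 times). In replicate 1 alone the FLC domain measured 7613 bp, beyond the 6067 bp of the gene. The long noncoding RNA locus AT5G01675 covers the same stretch as FLC (96.2% and 92.5%), and since peaks have no strand these loci cannot be told apart. For LFY, TSF and WOX1 no single shared domain covered 50% of the gene, although the peaks of each library did. MYB92 and the glucosidase gene BGLU35 (TGG5) lay in 2 more of the 10 longest domains, of 9647 and 9569 bp.

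Marked genes often lay side by side. Of the 2451 marked protein-coding genes, 1225 (49.98%) had a marked protein-coding neighbour, against 3224 of 24981 unmarked ones (12.9%). They formed 1691 runs in the gene order, of which 1226 were single genes, 304 were pairs, 161 had 3 or more genes and 29 had 5 or more. The longest run was 10 genes on chromosome 3, AT3G21900 to AT3G21980, in which AT3G21945 was covered completely and AT3G21950 over 73.0% and 60.2%. A run of 9 on chromosome 4, AT4G15270 to AT4G15350, contained the triterpene synthase gene PEN1 (82.2% and 73.9%) beside the cytochrome P450 genes CYP702A2, CYP702A3, CYP705A1 and CYP705A2 and the cellulose synthase-like genes ATCSLB05 and CSLB06. The peptide genes RALFL10, RALFL11, RALFL12 and RALFL13 opened a run of 7 on chromosome 2. MAM1 (53.8% and 51.2%) and IMS2 (90.8% and 70.9%), genes of methionine chain elongation in glucosinolate synthesis, stood together with MYB37 (93.3% and 100%) in a run of 7 on chromosome 5. Neighbouring copies in tandem arrays can share reads, and the handling of such reads is not given in the sources used here.

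Coverage was also averaged along marked genes. A single stretch over 50% or more of a gene must include its middle, although the call also adds up separate peaks. A maximum there is thus favoured by the call and is given only as a description. The central part, 40% to 50% of the length from the nearer end, was covered over 95.0% and 92.0% on average, and the outermost 10% over 67.5% and 62.4%. Coverage was 45.0% and 39.9% in the 250 bp next to the gene and 22.6% and 20.4% at 2000 to 3000 bp. The other protein-coding genes had 3.69% and 2.69% in the middle and 1.35% and 1.11% in the adjoining 250 bp. Without strand the start and end of a gene could not be told apart.

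The 5 chromosomes carried similar loads. Peaks covered 7.02% and 6.26% of chromosome 1, 6.03% and 5.38% of chromosome 2, 6.33% and 5.65% of chromosome 3, 6.61% and 5.93% of chromosome 4 and 6.59% and 5.92% of chromosome 5, with replicate 1 above replicate 2 on each. The share of protein-coding genes marked ran from 8.46% on chromosome 2 to 9.43% on chromosome 4. Shared domains had medians between 832.5 bp on chromosome 1 and 898 bp on chromosome 4, and chromosome 5 had the most domains of at least 5 kb (39).

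Along the chromosomes coverage was uneven. In 235 bins of 500 kb it ranged from 0 to 19.5% in replicate 1 and from 0 to 17.3% in replicate 2. The bin at 7.5 to 8 Mb of chromosome 3, which holds the longest domain and the longest run, had the highest value in both libraries, with 37 of its 146 protein-coding genes marked. The next were 24.5 to 25 Mb of chromosome 1 (18.7% and 15.5%) and 8.5 to 9 Mb of chromosome 4 (17.6% and 16.3%), which contains the PEN1 run. No base was covered in either library in 8 bins, 3 on chromosome 1 from 14.5 to 16 Mb, 1 on chromosome 3, 2 on chromosome 4 and 2 on chromosome 5, and each of them holds at most 17 protein-coding genes. Bins with under 50 protein-coding genes had 2.72% of those genes marked and 0.670% and 0.591% of their bases covered. The share was 9.18% in bins with 50 to 100 genes, 10.3% with 100 to 130, 8.94% with 130 to 150 and 7.71% with 150 or more, so it did not go on climbing with gene density.

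**Figure D5:**
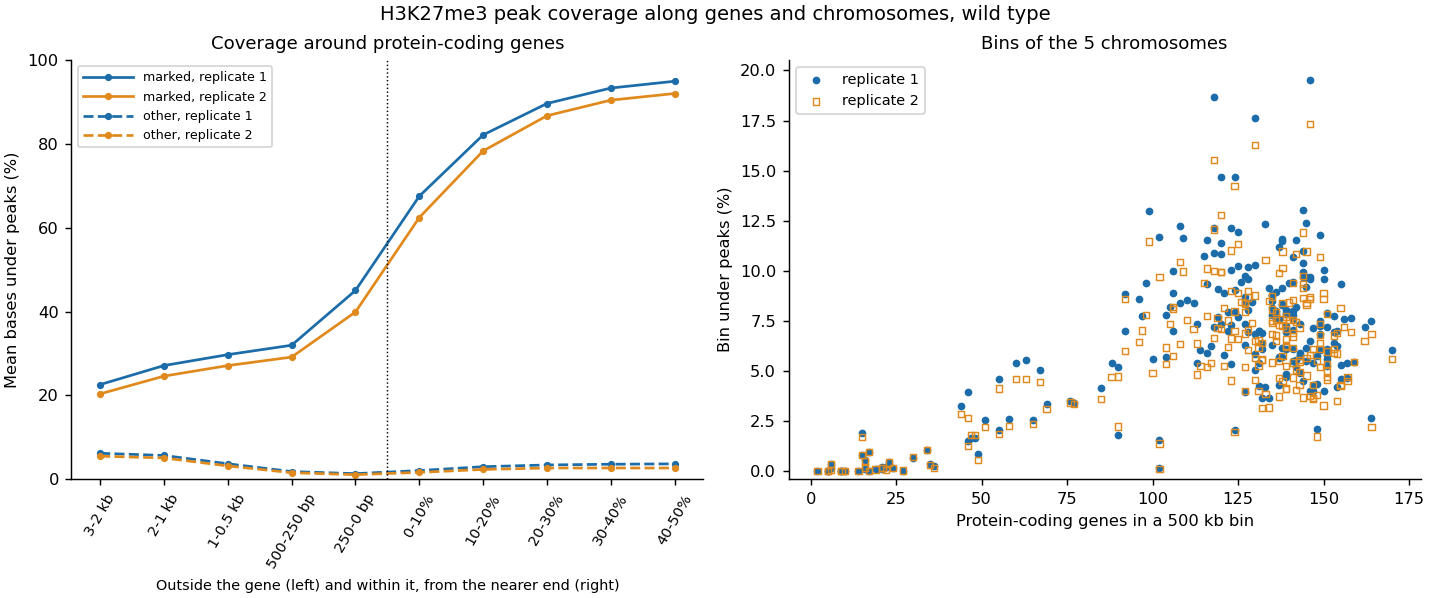
Left, mean percentage of bases under peaks from 3 kb outside protein-coding genes (both sides together) to their middle, for genes marked in both libraries (solid) and all others (dashed). Right, percentage of each 500 kb bin under peaks against its number of protein-coding genes. Coverage of marked genes is 95.0% and 92.0% in the middle, a maximum that the call itself favours, and the bins with the fewest genes lie near 0.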

How the data were processed

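Reads of H3K27me3 chromatin immunoprecipitation from 2 wild-type samples had been aligned to TAIR10 with Bowtie2 2.2.5 and peaks called with MACS 1.4, per the submitters' processing notes. The sources used here name neither the control input nor the calling options, and the wild-type input was not analysed here. Each list deposited by the authors holds positions and a score, −10 times log10 of the p-value, with a minimum of 50; scores were used to describe and filter peaks, and the highest stack at 3100 (67 and 39 peaks). The lists give no depth.

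Genes came from the RefSeq table of TAIR10.1 (37887 nuclear loci, no strand, no sequence). Peaks shifted by 1000 bp fitted the genes less well (41.8% to 47.1% of peak bases in protein-coding bodies, against 60.0% to 63.8% unshifted, in 10 of 10 chromosome parts). Coordinates are those of the peaks, counted from 1. Coverage, domains and counts were computed in Python 3.11.15 with numpy 2.4.6 and pandas 2.3.3 and checked on simulated intervals. There was no contrast and so no test. A planned look at promoters and sequence motifs was not run for lack of strand and sequence. The members and lists were chosen with earlier results of these data known. Named genes are the members of 8 lists (62 genes, all matched), marked members of 43 families found by symbol or synonym (47 unrelated loci were removed by identity), loci with the highest lower score, and the 10 longest and richest domains; genes just at the bound, list and family members under it and runs were named after their values were seen. Alternatives were other coverage bounds, a score of at least 100, bases covered in both libraries, other joining distances, either library and leaving out each library.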

Additional observations from a re-analysis of the deposited data

How the results depend on the processing

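No paired analysis was possible because the landscape is 1 group of 2 libraries, with no other group to pair and no test. Any overlap in place of 50% gave 5030 loci and 4287 protein-coding genes (15.6%), and 80% gave 1647 and 1306 (4.76%). A score of at least 100, bases covered in both libraries and leaving out either library kept both counts within 1.5 times: without one replicate they were 3175 to 3556 loci and 2605 to 2914 protein-coding genes. The Jaccard index was 0.660 at scores of at least 100 and 0.705 with joined peaks. The mean share of peaks overlapping the other list was 79.8 ± 3.62% (SD, n = 2) and 68.8% when 50% of the peak had to overlap. Without joining there were 11678 shared domains with a median of 277 bp, and 158 of them held 2 or more marked loci. Joining up to 1000 bp gave a median of 1094 bp, and leaving out one replicate gave 852 to 936 bp. Leaving out one replicate also gave 5999 to 6020 domains and 454 to 542 with 2 or more marked loci. Families above the share of all protein-coding genes numbered 25 to 29 over the settings, and 23 of the 27 stayed above it at 80% of the gene, where IAA, KNOX, XTH and bZIP genes did not. XTH genes also dropped out at scores of at least 100, with bases covered in both libraries and without replicate 1. ERF and DREB genes dropped out at any overlap. Counts of lists and families stayed within 1.5 times in 47 of 51 cases at scores of at least 100, 49 without replicate 1, 45 without replicate 2, 26 with any overlap and 23 at 80%. Without depth, weak or narrow marks cannot be told from absent ones.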

Other observations

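Gene groups outside the lists also carried the mark. They were picked after their values had been seen (5 lists, 53 genes), so their counts are descriptions and support nothing. Of all protein-coding genes 8.93% were marked. All 8 seed storage protein genes examined were marked, with the cruciferin gene CRU3 and the albumin genes SESA1, SESA2 and SESA3 covered completely in both libraries and SESA4 over 95.9% and 80.1%. SESA1 to SESA4 lay together in a shared domain of 7004 bp on chromosome 4, 13607143 to 13614146. Of 10 SHI-related genes, zinc-finger regulators of gynoecium and leaf growth, 7 were marked, with STY1, STY2, SRS5 and SRS7 covered completely, while SRS3, SRS6 and SRS8 had no covered base.

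Among 16 regulators of xylem and secondary walls, 12 were marked, including VND3 (100% and 99.7%), NST3 (93.7% and 95.2%) and MYB85 (94.2% and 70.7%). NST2 had 47.8% and 21.7%, and NAC101 (VND6), MYB58 and MYB63 had none. In glucosinolate synthesis and breakdown 8 of 14 genes were marked: the regulators MYB28 and MYB29, the entry enzymes CYP79F1, CYP79F2, CYP79B2 and CYP79B3, and the myrosinases TGG1 and TGG2. The others were not uniform. MYB34 and CYP83B1 had no covered base, MYB51 had 13.0% and 9.81%, and CYP83A1 had 39.2% and 32.3%. MYB76 (59.6% and 30.3%) and MYB122 (58.3% and 33.2%) missed the bound in replicate 2. All 5 genes of thalianol and marneral synthesis, root triterpenes made by clustered genes, were marked, from CYP708A2 (74.0% and 52.3%) to MRN1 (95.8% and 93.6%).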
